A study of Homo sapiens with 12 samples.

Results

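The genes described here encode the proteins of the cytosolic ribosome, the particle of RNA and protein that makes the cell's proteins. They were the rows of the gene count tables whose symbol is RPL or RPS with a number and at most one letter A or X, together with RPLP0, RPLP1, RPLP2, RPSA, RPL22L1, RPL39L, RPL36AL, and RPS27L. The rule uses names and no measured value, and it found 81 of the 60708 genes in each table. They comprised 46 genes of the large (60S) subunit, 31 genes of the small (40S) subunit, and 4 paralogs, RPL22L1, RPL39L, RPL36AL, and RPS27L, which are held apart.

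The RNA came from HCT116, a human colon cancer cell line labelled WT, so the replicates are cultures of 1 line. The groups were OA (oligomycin A, which blocks the mitochondrial ATP synthase, 5 µg/mL in the labels and a different dose in the paper's methods), TN (tunicamycin, which blocks N-glycosylation in the ER, 5 µg/mL), and a DMSO control for each, OActrl and TNctrl, all collected after 24 h. Each of the 4 groups held 3 biological replicates, which made 12 libraries. The comparisons ask how the mRNAs of the protein synthesis machinery differ under a mitochondrial and an ER stressor.

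Ribosomal protein (RP) mRNAs are among the most abundant mRNAs of a growing cell. Most belong to the TOP mRNAs, which begin with a C followed by a run of pyrimidines, and their translation is held back through LARP1 when the growth kinase mTOR is off. RP genes have left many processed pseudogenes in the human genome, and some paralogs can take the place of the usual protein in part of the ribosomes. RNA-seq measures the level of the mRNA and not its translation. In bulk samples, a change in RNA per cell and a change in the cells that are present cannot be told apart.

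The library totals ranged from 9884124 to 24983573 counts. Of 6 colon epithelial markers, each had at least 560 counts in every library, whereas the 10 markers of blood, endothelial, and stromal cells were far lower. Their sum in CPM, here the count scaled to the library total, was 1.601 to 2.79 in OActrl, 5.16 to 9.55 in OA, 2.25 to 4.64 in TNctrl, and 2.03 to 3.93 in TN, CD3E was at 0 throughout, PTPRC had at most 1 count, and COL1A1 reached the highest count of the list, 124. RN7SL1, a noncoding RNA of the signal recognition particle, took 7.12 ± 1.05% of the counts in OActrl, 12.9 ± 4.79% in OA, 6.68 ± 0.716% in TNctrl, and 10.8 ± 2.15% in TN (SD, n = 3 each). OA replicate 2 had the highest share of RN7SL1, 17.9%. OA replicate 2 and TN replicate 1 stood apart from their groups in the RP mRNAs, as given below. Log2 fold changes without them are given beside several of the named members that were recomputed. For RPS16, also given below, the values without them were not looked up. The part of the RN7SL1 shift and of the marker sum in the results was not tested.

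The first bases of the mRNAs are shown for the members on which the results turn, since the pyrimidine start is the feature that the family shares. RefSeq starts on GRCh38.p14 were matched for 65 of the 81 members. Where a gene had several starts, the one with the longest run behind a C was taken. Each line gives 10 bases before and 20 bases from the start, 5′ to 3′ on the gene's strand, with the unbroken pyrimidine run at the start in capitals. The first 4 lines are members with the largest fold changes, RPS6 is the ribosomal substrate of the S6 kinases, and the next pairs set a parent gene above its paralog.
RPL10: ggaggagcgcCTCTTTCCCTTCggtgtggt
RPS18: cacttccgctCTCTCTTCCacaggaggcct
RPL12: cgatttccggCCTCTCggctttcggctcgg
RPL3: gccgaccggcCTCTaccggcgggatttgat
RPS6: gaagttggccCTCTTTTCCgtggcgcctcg
RPS27: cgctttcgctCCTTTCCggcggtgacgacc
RPS27L: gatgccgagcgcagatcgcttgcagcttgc
RPL22: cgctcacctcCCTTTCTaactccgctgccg
RPL22L1: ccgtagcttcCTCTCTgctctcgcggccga
RPL36A: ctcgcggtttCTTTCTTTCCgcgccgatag
RPL36AL: tcttccctttCCTgttaggcgagagctgcg
RPL17: ttccctaagcagcctgaggtgagtgtttct

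The windows lie at chrX:154398367-154398396 for RPL10 (plus strand), chr6:33272065-33272094 for RPS18 (plus), chr9:127451387-127451416 for RPL12 (minus), and chr22:39319604-39319633 for RPL3 (minus). Those of RPS6, RPS27, and RPS27L lie at chr9:19380217-19380246 (minus), chr1:153990752-153990781 (plus), and chr15:63157458-63157487 (minus). Those of RPL22, RPL22L1, RPL36A, RPL36AL, and RPL17 lie at chr1:6199576-6199605 (minus), chr3:170870176-170870205 (minus), chrX:101391001-101391030 (plus), chr14:49620607-49620636 (minus), and chr18:49492446-49492475 (minus). A C followed by at least 4 further pyrimidines stood at a start of 47 of the 65 matched members, or 72.3%, against 5.14% of all 27305 genes with a RefSeq start. RPS27L has no pyrimidine at its start, and RPL36AL has a run of 3.

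Counts on RP genes made up a larger share of the libraries after either stressor. The 81 members took 9.98%, 11.4%, and 10.5% of all counts in OActrl replicates 1 to 3 and 13.3%, 15.7%, and 14.1% in the OA replicates. They took 11.8%, 9.38%, and 9.48% in the TNctrl replicates and 16.8%, 12.6%, and 12.8% in the TN replicates. No treated library overlapped a DMSO library of its own comparison. The means were 10.6 ± 0.722% and 14.4 ± 1.22% for OActrl and OA, and 10.2 ± 1.35% and 14.1 ± 2.38% for TNctrl and TN (SD, n = 3 each). The counting error was small, with Wilson 95% intervals of at most ± 0.0217 percentage points, which cover counting error only. Without TN replicate 1, the difference for TN was 2.52 in place of 3.89 percentage points. The 60S genes held 58.9% of the RP counts in OActrl, 58.9% in OA, 59.4% in TNctrl, and 59.5% in TN, with an SD of at most 1.10 percentage points.

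**Figure D1:**
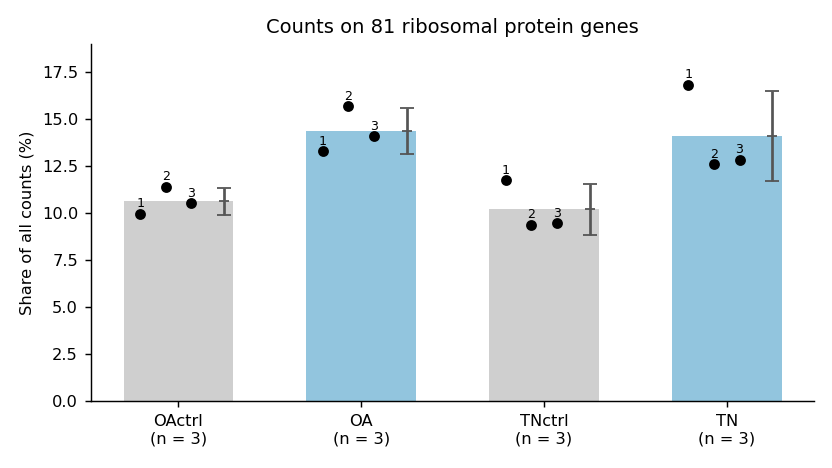
Share of all counts on the 81 RP genes in percent, with bars for the mean of 3 libraries, error bars for the SD, and points numbered by replicate. In each comparison the lowest treated library, 13.3% for OA and 12.6% for TN, lies above the highest DMSO library, 11.4% and 11.8%.

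After TMM normalization, the members were compared gene by gene with edgeR's quasi-likelihood test, and a gene was called at an adjusted p under 0.05 over all tested genes. RPL39L had too few counts, so 80 members were tested. Of these, 76 had a higher and 4 a lower level in OA than in OActrl, with a median log2 fold change of 0.66, against -0.02 for all tested genes. In TN, 74 were higher and 6 lower than in TNctrl, with a median of 0.59 against -0.03. Without OA replicate 2 the OA median was 0.36, and without TN replicate 1 the TN median was 0.37. The median of the members was positive under every scaling tried. With library totals it was 0.39 in OA and 0.40 in TN, where the median of all genes was -0.23 and -0.18. With ACTB as the reference it was 1.12 and 0.90, where that of all genes was 0.42 and 0.30.

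**Figure D2:**
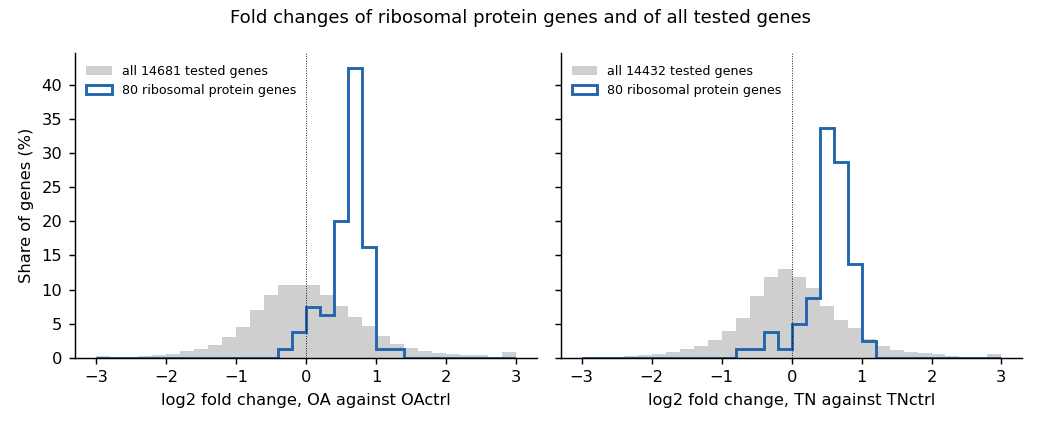
Share of genes in percent in bins of the log2 fold change for the 80 tested RP genes (line) and for all tested genes (grey), with fold changes beyond 3 in either direction placed in the end bins. The RP genes gather around medians of 0.66 in OA and 0.59 in TN, whereas all tested genes center on -0.02 and -0.03.

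For OA, edgeR's test called 0 of the 80 members, where 4.48% of all 14681 tested genes were called. At an unadjusted p under 0.05, 41 members were higher and 0 lower, where 13.0% of all tested genes were higher at that p. DESeq2 called 4 members, RPS18, RPL13A, RPL3, and RPL10, where it called 5.77% of all genes, so this count is near its background. All 3 OA libraries exceeded all 3 OActrl libraries for 45 of the 80, as for 16.3% of all tested genes. This number was 46 without OA replicate 2 (20.4% of all tested genes), 68 without OA replicate 1 (25.1%), and 68 without OActrl replicate 2 (21.4%). The median position of the members against the OActrl mean was 0.27, 1.07, and 0.49 on the log2 scale in OA replicates 1 to 3, and -0.11, 0.18, and -0.07 in the OActrl replicates.

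For TN, 1 member, RPL10, was called, where 6.99% of all 14432 tested genes were called, and DESeq2 called 5, RPL31, RPL37, RPS18, RPL3, and RPL10, where it called 6.12% of all genes, again near its background. At an unadjusted p under 0.05, 36 members were higher and 1, RPL17, was lower, where 12.2% of all tested genes were higher at that p. All 3 TN libraries exceeded all 3 TNctrl libraries for 43 of the 80, as for 15.9% of all tested genes, and this number was 43 without TN replicate 1 (24.5% of all tested genes) and 69 without TNctrl replicate 1 (21.95%). The median position against the TNctrl mean was 1.05, 0.27, and 0.36 in TN replicates 1 to 3, and 0.28, -0.17, and -0.11 in the TNctrl replicates.

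Replicate 1 was thus the highest in both TN groups, and replicate 2 was the highest in both OA groups. The replicate numbers were taken to pair the TN libraries, from a check over all genes. With the replicate number as a block, 62 of the 80 members were called in TN, where 27.1% of all tested genes were called. Of the 62, 61 rose, where 11.8% of all tested genes rose, and RPL17 fell, where 15.3% of all tested genes fell. In 71 members each TN library lay above the TNctrl library of its own number, as in 27.1% of all tested genes. The blocked count in TN was 71 without both libraries numbered 1 (41.3% of all tested genes called), 46 without those numbered 2 (12.8%), and 25 without those numbered 3 (16.8%). The numbers were not taken to pair the OA libraries. With the block 45 members were called in OA, all higher (26.7% of all tested genes called). This count was 35 (17.2%), 66 (25.5%), and 1 (17.5%) without the libraries numbered 1, 2, and 3. In 70 members each OA library lay above the OActrl library of its own number, as in 4074 of all 14681 tested genes.

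**Figure D3:**
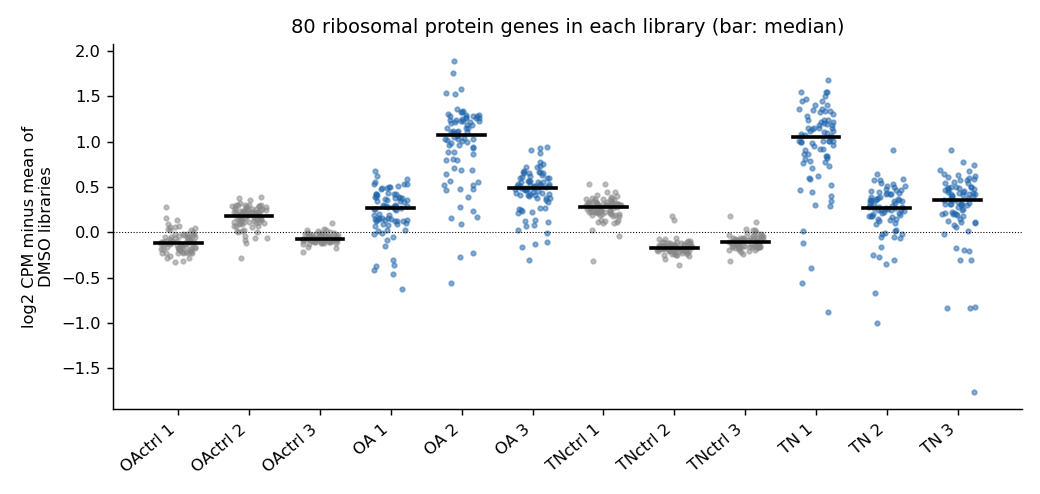
Level of each of the 80 tested RP genes (points) in each library as log2 CPM minus the mean of the 3 DMSO libraries of its comparison, with a bar for the library's median. OA 2 and TN 1 have the highest medians, 1.07 and 1.05, and the medians of the other 4 treated libraries lie between 0.27 and 0.49.

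Both subunits had mostly higher levels. The 46 genes of the 60S subunit had a median log2 fold change of 0.65 in OA and 0.57 in TN, with 44 of 46 higher in each. The 31 genes of the 40S subunit had medians of 0.67 and 0.62, with 30 and 29 higher. Under the replicate block in TN, 38 genes of the 60S subunit rose, 1 fell, and 7 were not called, and 23 genes of the 40S subunit rose and 8 were not called, where 11.8% of all tested genes rose and 15.3% fell. No test was made between the subunits.

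Among the large subunit genes, RPL10, whose protein joins last and lies near the catalytic center, had the largest log2 fold change in both comparisons. RPL10 (ENSG00000147403, chrX:154389955-154409168 in hg38) had 872, 1169, and 940.3 CPM in OActrl and 1574, 3668, and 1846 CPM in OA. It had 1208, 851, and 865 CPM in TNctrl and 3090, 1799, and 1810.2 CPM in TN. Neither comparison showed an overlap of treated and DMSO libraries. The log2 fold change in OA was 1.25 (standard error 0.35), and 0.77 without OA replicate 2. RPL10 was not called in OA (edgeR quasi-likelihood, Benjamini-Hochberg adjusted p = 0.0819), and with the replicate block the edgeR adjusted p was 0.00487. In TN the log2 fold change was 1.20 (standard error 0.28), and RPL10 was called (edgeR adjusted p = 0.0496, and 0.000489 with the replicate block). Without the block, the call was lost when any 1 library other than TN replicate 1 was left out. Over 20 alternatives in edgeR or DESeq2, the adjusted p ranged from 0.000305 to 0.295 in OA and from 2.45e-10 to 0.181 in TN.

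RPL3 (chr22:39312882-39320389), a core protein of the peptidyl transferase region, was the third in TN. Its levels were 1865, 2226, and 1941 CPM in OActrl and 2901, 4661, and 3852 CPM in OA, and 2386, 1694, and 1849 CPM in TNctrl and 5342, 2783, and 3357 CPM in TN. All treated libraries exceeded all DMSO libraries in both comparisons. The log2 fold change was 0.92 (standard error 0.25, edgeR adjusted p = 0.0775) in OA and 0.95 (standard error 0.29, edgeR adjusted p = 0.0921, and 0.00144 under the block) in TN.

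RPL12, a protein at the base of the stalk, had 1699, 2139, and 1699.95 CPM in OActrl and 2651, 5299, and 2898 CPM in OA. Its TN libraries, at 4949.7, 2661, and 2734 CPM, also lay above its TNctrl libraries, at 2391, 1733, and 1736 CPM. The log2 fold changes were 0.97 in OA and 0.82 in TN, with edgeR adjusted p of 0.116 in OA, 0.146 in TN, and 0.00312 in TN under the block. Without OA replicate 2 the value in OA was 0.58, and without TN replicate 1 that in TN was 0.51.

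RPL5 and RPL11 form, with 5S rRNA, the particle that binds MDM2, the ligase of p53, when ribosomes are not being made properly. RPL5 had 1247, 1341, and 1200.2 CPM in OActrl and 1694, 1816, and 1771 CPM in OA, whereas RPL11 had 1173, 1432, and 1196 CPM in OActrl and 1540.4, 2464, and 1795 CPM in OA. The OA libraries of both genes lay above all OActrl libraries, and their log2 fold changes of 0.48 and 0.61 lay below the members' median. In TN the log2 fold changes were 0.41 for RPL5 and 0.52 for RPL11. Both genes rose under the replicate block (edgeR adjusted p = 0.0268 and 0.0156), where 11.8% of all tested genes rose. RPL11 was at 0.39 in OA without OA replicate 2 and at 0.32 in TN without TN replicate 1. MDM2 had log2 fold changes of -0.10 in OA and -0.18 in TN and was not called.

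The P stalk recruits the elongation factors and is made of RPLP0 with dimers of RPLP1 and RPLP2. RPLP0 had log2 fold changes of 0.77 in OA and 0.80 in TN, RPLP2 of 0.61 and 0.60, and RPLP1 of 0.63 and 0.41, with standard errors between 0.28 and 0.48. Under the block in TN, RPLP0 and RPLP2 rose (edgeR adjusted p = 0.00311 and 0.0244), where 11.8% of all tested genes rose. RPLP1 was not called with it (edgeR adjusted p = 0.561). RPLP1 had 1242, 608, and 298 CPM in TN against 702, 443, and 467 CPM in TNctrl. Its TN replicate 3 thus lay below all 3 TNctrl libraries, and without TN replicate 1 its log2 fold change was -0.21. The other stalk genes also moved without that library, RPLP0 to 0.30 and RPLP2 to 0.23 in TN. In OA, leaving out replicate 2 gave 0.42 for RPLP0, 0.35 for RPLP1, and 0.29 for RPLP2.

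RPL41 and RPL39, which encode very small proteins of the ribosome, and RPL13 followed the family. Their log2 fold changes were 0.75, 0.72, and 0.83 in OA and 0.61, 0.59, and 0.81 in TN. All 3 rose in TN under the replicate block, listed here in that order as edgeR adjusted p of 0.0266, 0.0152, and 0.00461. So did 61 of the 80 members and 11.8% of all tested genes. Without OA replicate 2 the values in OA were 0.37, 0.48, and 0.49, and without TN replicate 1 those in TN were 0.29, 0.38, and 0.48.

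Among the small subunit genes, RPS18 (ENSG00000231500, chr6:33272075-33276511), a protein of the head, had the largest log2 fold change. It had 2442, 3109, and 2726 CPM in OActrl and 3961, 9305, and 5035 CPM in OA, and 3313, 2341, and 2530.1 CPM in TNctrl and 7658, 4219, and 4519 CPM in TN. The treated and DMSO libraries did not overlap, and OA replicate 2 was the highest of all. The log2 fold change was 1.14 (standard error 0.34, edgeR adjusted p = 0.0965) in OA and 1.00 (standard error 0.29, edgeR adjusted p = 0.0794, and 0.000902 under the block) in TN. The value in OA was 0.69 without OA replicate 2.

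RPS6, the substrate of the S6 kinases, had 2427, 2637, and 2459.5 CPM in OActrl and 3524, 6027, and 3724 CPM in OA. In TN it had 5125, 3502, and 3884 CPM against 2966, 2306, and 2395 CPM in TNctrl. Both sets of treated libraries exceeded their controls, with log2 fold changes of 0.82 in OA and 0.71 in TN (edgeR adjusted p = 0.122 and 0.101, and 0.0022 in TN with the replicate block). RPS6 was at 0.53 in OA when OA replicate 2 was left out.

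RPS4X, RPS27A (made as a fusion with ubiquitin), RPS3 (near the mRNA entry), and RPSA (also known as a laminin receptor) had log2 fold changes of 0.71, 0.70, 0.61, and 0.55 in OA. Their log2 fold changes in TN were 0.68, 0.57, 0.59, and 0.59. None was called in either comparison without the block, where 4.48% of all tested genes in OA and 6.99% in TN were called. All 4 rose in TN with it (edgeR adjusted p = 0.00561, 0.00729, 0.0224, and 0.017). So did 61 of the 80 members and 11.8% of all tested genes. Without TN replicate 1, the unblocked log2 fold changes in TN were 0.47 for RPS4X, 0.36 for RPS27A, 0.18 for RPS3, and 0.17 for RPSA. Without OA replicate 2, those in OA were 0.51, 0.38, 0.34, and 0.23 in the same order.

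RPS16 was chosen after its values were seen. It had 308, 134, and 40.7 CPM in TN against 177, 117, and 128 CPM in TNctrl, so that TN replicate 3 was the lowest of the 6, as for RPLP1. In OA it had 219, 365, and 272 CPM against 184, 181, and 172 CPM in OActrl, without overlap. Its log2 fold change was 0.67 in OA and 0.19 in TN (standard error 0.25 and 0.62), and it was called in neither. With the replicate block the value in TN had the other sign, -0.18 (edgeR adjusted p = 0.772).

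The 3 tested paralogs had log2 fold changes of -0.16 to 0.21 in OA and of -0.33 to 0.14 in TN, where the 77 other members had medians of 0.67 and 0.59. None of the 3 was called with or without the block, and the difference from the other members was not tested. Of all tested genes, 4.48% in OA and 6.99% in TN were called without the block, and 26.7% and 27.1% with it. RPS27L, a gene induced by p53, had 68.2, 45.9, and 56.0 CPM in OActrl and 61.1, 67.8, and 67.7 CPM in OA, and 80.4, 61.2, and 70.8 CPM in TNctrl and 64.8, 69.6, and 76.4 CPM in TN. The groups overlapped in both comparisons. Its parent RPS27, a zinc-finger protein of the small subunit, had 737, 875, and 786 CPM in OActrl and 1119, 2047, and 1363 CPM in OA, without overlap. In TN, RPS27 had 1922, 1190.1, and 1306 CPM against 976, 759, and 787 CPM in TNctrl, and it rose under the block (log2 fold change 0.79, edgeR adjusted p = 0.0029). Read as counts of RPS27L per count of RPS27, the ratio was 0.0721 ± 0.0201 in OActrl and 0.0458 ± 0.0112 in OA, and 0.0843 ± 0.00497 in TNctrl and 0.0502 ± 0.0143 in TN (SD, n = 3 each). The ratio was lower in every TN library than in every TNctrl library, and the OA and OActrl libraries overlapped.

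RPL22L1, the paralog of RPL22, had more counts than its parent in these cells. RPL22 shares 11.2% of its mRNA with another gene on the same strand, and RPL22L1 shares none. Reads that fall in both genes are not counted, and the part of this in the difference was not tested. RPL22L1 had 420, 353, and 380.3 CPM in OActrl and 361, 328, and 343 CPM in OA, whereas RPL22 had 95.6, 87.3, and 89.9 CPM in OActrl and 116, 61.8, and 98.3 CPM in OA. In TN, RPL22L1 had 335, 410.4, and 433 CPM, all below its TNctrl libraries at 481, 469.5, and 533 CPM, and RPL22 had 119, 118, and 133 CPM, all above its TNctrl libraries at 105, 87.4, and 98.0 CPM. Neither gene was called in TN without or with the replicate block. The log2 fold changes were -0.33 and 0.35 (edgeR adjusted p = 0.332 and 0.299, and 0.0941 and 0.106 with the block). That of RPL22L1 was 0.01 with ACTB scaling and -0.18 without TN replicate 1. Over 20 alternatives in edgeR or DESeq2, RPL22L1 was called in TN in 1 and RPL22 in 2. The adjusted p ranged from 0.0244 to 0.987 for RPL22L1 and from 0.000143 to 0.687 for RPL22. The counts of RPL22L1 per count of RPL22 were 5.14 ± 0.467 in TNctrl and 3.18 ± 0.325 in TN (SD, n = 3 each), without overlap, and 4.22 ± 0.176 in OActrl and 3.97 ± 1.17 in OA, with overlap.

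RPL36AL had 196, 224, and 190.2 CPM in OActrl, 206, 282, and 188 CPM in OA, 250, 221, and 228 CPM in TNctrl, and 297, 223, and 250.2 CPM in TN. Its log2 fold changes were 0.15 in OA and 0.14 in TN, and with scaling to library totals they were -0.087 and -0.026. Without OA replicate 2 the value in OA was -0.046, and without TN replicate 1 that in TN was 0.064. Its parent RPL36A had only 6.53 to 13.8 CPM in the 12 libraries. RPL36A shares 43.8% of its mRNA with another gene on the same strand, and RPL36AL shares none. Reads that fall in both genes are not counted, and the part of this in the difference was not tested. RPL39L, whose protein is known from the testis, had 1 count in OActrl replicate 2 and 0 in the other 11 libraries, where a count of 0 allows up to 0.304 CPM (3 counts of the smallest library total). RPL39, its parent, had 648, 1053, and 733 CPM in OA against 469, 530.0, and 484 CPM in OActrl.

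**Figure D4:**
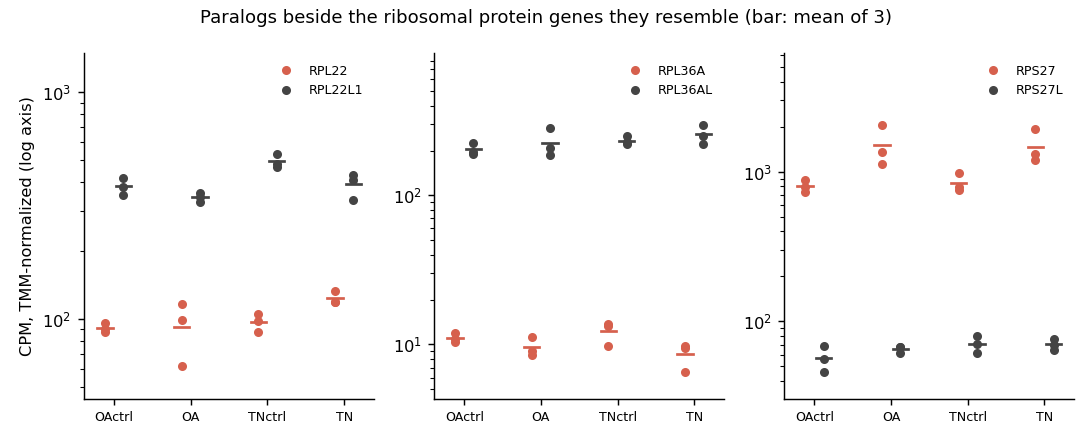
Level in CPM on a log axis of 3 paralogs and of their parents in each group, with a point for each library and a bar for the mean of 3. RPL22L1 lies above RPL22 and RPL36AL above RPL36A in every group, whereas RPS27L lies below RPS27, whose treated libraries all exceed their controls. Reads in the exons that RPL22 and RPL36A share with other genes are not counted.

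Of the 4 members with a lower level in OA and the 6 in TN, 3 and 4 share exons with another gene on the same strand. RPL17 (chr18:49488453-49492508) shares 96.9% of its mRNA with the readthrough gene RPL17-C18orf32, RPS10 84.0% with RPS10-NUDT3, and RPL36A 43.8% with RPL36A-HNRNPH2, in the Gencode release 44 annotation. All 3 readthrough genes had 0 counts in all 12 libraries. STAR's gene counts leave out reads that fall in more than one gene. RPL17 had 13.2, 18.5, and 13.8 CPM in OActrl and 10.8, 16.9, and 12.1 CPM in OA, and 17.2, 17.7, and 12.5 CPM in TNctrl and 11.8, 7.75, and 8.67 CPM in TN. Its TN libraries lay below all TNctrl libraries, and it fell under the replicate block by 0.75 on the log2 scale (edgeR adjusted p = 0.0366), but was not called without it (edgeR adjusted p = 0.146). It was also called without the block when scaled to library totals, by -0.92, and over 20 alternatives in edgeR or DESeq2 its adjusted p in TN ranged from 0.00945 to 0.36. RPL36A and RPS10 had log2 fold changes of -0.51 and -0.40 in TN and of -0.20 and -0.13 in OA, none called, and both OA values were positive with ACTB scaling. RPL36A was at -0.30 in TN without TN replicate 1, and RPS10 was at -0.073 in TN without TNctrl replicate 1. In all, 7 members shared over 10% of their mRNA with a gene on the same strand. Their median log2 fold change was 0.02 in OA and -0.21 in TN, and the part of the uncounted reads in this was not tested. Of the 70 tested members with neither such an overlap nor the name of a paralog, all 70 had positive log2 fold changes in both comparisons, with medians of 0.67 and 0.60. With the replicate block in TN, 68 were positive and 2 negative. DESeq2 gave 68 positive and 2 negative in OA, and 69 and 1 in TN. Setting members with such an overlap apart was added after seeing the data.

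Levels were also set per length of the shortest transcript holding the whole coding sequence. In DMSO-treated cells, RPS18 (5026 CPM per kb in OActrl and 4969 in TNctrl), RPLP0 (5055 and 4519), and RPL13 (3994 and 3616) were the highest. RPS27L (9.28 and 11.6), RPL36A (14.5 and 16.2), and RPS10 (15.0 and 18.4) were the lowest of the 80 tested members. For RPS27L the annotated transcript is long, at 6110 bases, and RPL36A and RPS10 are among the genes with shared exons, so these low values need not be low mRNA levels. Members with a higher log CPM in DMSO, not set per length, had larger log2 fold changes, with Pearson's r of 0.63 and Spearman's rho of 0.44 across 80 genes in OA and of 0.70 and 0.46 in TN. These correlations are across genes that share libraries and are not independent replicates. RPL17, RPL36A, and RPS10, which share exons with other genes, had low CPM and negative log2 fold changes in both comparisons. The correlations were not recomputed without them, so these genes may carry part of the relation.

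Members with few and with many copies elsewhere in the genome had medians close to each other. Among 50-base windows of each mRNA, the share with an exact copy elsewhere in the nuclear genome ranged up to 100% for RPL21. The 29 tested members with at most 20% of windows copied had median log2 fold changes of 0.66 in OA and 0.60 in TN, and the 27 with over 50% had 0.61 and 0.56. RP pseudogene rows took 0.111 ± 0.0123% of the counts in OActrl, 0.135 ± 0.0156% in OA, 0.100 ± 0.0131% in TNctrl, and 0.132 ± 0.0336% in TN (SD, n = 3 each). The tested pseudogenes, 127 in OA and 109 in TN, had medians of 0.61 and 0.68. Without the block 1 was called in each, where 4.48% and 6.99% of all tested genes were called. With the replicate block in TN, 17 rose and 1 fell, where 11.8% of all tested genes rose and 15.3% fell. Reads of a parent gene and of its copies cannot be told apart where the sequence is the same.

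Members with and without the pyrimidine start also had close medians, and the difference was not tested. The 47 with the start had median log2 fold changes of 0.66 in OA and 0.59 in TN, and the 18 matched members without it had 0.64 and 0.57. RPL3, whose run is one base short of the rule, and RPL10, with 12 pyrimidines, were both near the top. The letters CCGGAAG, searched on both strands of the windows from 250 bases before to 50 after each start, stood in 33.8% of the 80 member starts and in 10.3% of all 35116 starts. The 23 members with these letters had medians of 0.67 and 0.60, against 0.65 and 0.56 for the other 42. A match describes letters and not a binding site.

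The responses to the stressors were compared in a contrast of the OA change minus the TN change over all 12 libraries. edgeR called 0 of the 80 members and 0% of 15429 genes, 0 members had an unadjusted p under 0.05, where 2.26% of all tested genes had one, and DESeq2 also called 0 members. The median difference of the members was -0.02 on the log2 scale. The largest difference was that of RPL17, 0.48 (standard error 0.36), and that of RPL10 was -0.02 (standard error 0.43), so differences of either sign remain within these errors. Across the 80 genes, the log2 fold changes in OA and TN, which had separate DMSO libraries, had Pearson's r of 0.92 and Spearman's rho of 0.89. Genes of one library share its depth and scaling and are not independent.

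**Figure D5:**
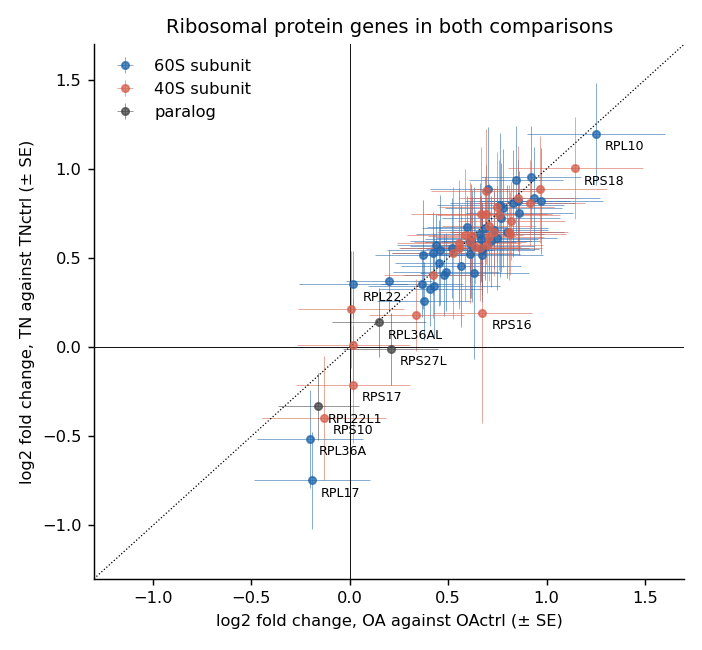
The log2 fold change of each of 80 RP genes in OA (x axis) and in TN (y axis), with standard errors, colored by subunit, and with the dotted line where both are equal. RPL10 and RPS18 lie at the upper right, and RPL17, RPL36A, RPS10, and RPL22L1 lie under 0 on both axes.

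Of 12 ribosomal protein genes and relatives outside the naming rule, 6 were tested, with 4 higher and 2 lower in OA and 3 higher and 3 lower in TN. RACK1, a scaffold on the small subunit, had 2299.9, 3381, and 2557 CPM in OActrl and 3123, 6905, and 4407 CPM in OA, with overlap. RACK1 had log2 fold changes of 0.81 in OA and 0.79 in TN and FAU (RPS30 fused to a ubiquitin-like protein) of 0.58 and 0.53. RPL26L1 had log2 fold changes of -0.57 in OA and -0.38 in TN, RPL7L1 of -0.08 and -0.13, and RPL3L, with few counts, of 0.95 and -1.24 (standard error 0.84 and 0.69). None of the 6 was called without the block, where 4.48% of all tested genes in OA and 6.99% in TN were called. RACK1 and FAU rose in TN with the block, where 11.8% of all tested genes rose.

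Other TOP mRNAs, chiefly translation factors and with RACK1 and FAU among them, went both ways. Of 24 listed genes 23 were tested, and 16 were higher in each comparison, with medians of 0.28 in OA and 0.24 in TN. EEF1A1, which carries aminoacyl-tRNA to the ribosome, rose in both, by log2 fold changes of 1.18 and 1.06 (edgeR adjusted p = 0.0359 and 0.0257). TPT1 rose in TN (log2 fold change 0.93, edgeR adjusted p = 0.0297), and in OA its log2 fold change was 0.89 (edgeR adjusted p = 0.0564). With the block in TN, 8 of the 23 rose and 3 fell, where 11.8% of all tested genes rose and 15.3% fell, and those that fell were NPM1, NAP1L1, and IPO5, which act in ribosome assembly, histone handling, and nuclear import. EEF1G had 0 counts in all 12 libraries. Whether its reads were left out as shared with another gene was not examined, so this need not be a low mRNA level.

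Of 11 regulators of TOP mRNAs, none was called in either comparison without the block. Of all tested genes, 4.48% in OA and 6.99% in TN were called. With the block in TN, EIF4EBP1, an inhibitor of cap-dependent translation, rose (log2 fold change 0.80, edgeR adjusted p = 0.009). EIF4E, EIF4G1, EIF4EBP2, and TIAL1 fell, by 0.94, 0.67, 0.50, and 0.55 on the log2 scale, and LARP1 was not called (log2 fold change -0.20 with the block). These are 1 rise and 4 falls of 11, where 11.8% of all tested genes rose and 15.3% fell. A list of RP chaperones and genes in the control of free RPs had 8 genes, MDM2 among them. Of these, 3 were higher and 5 lower in each comparison, and 4 fell with the block in TN. GRWD1, a chaperone of RPL3, fell in TN by 1.24 on the log2 scale (edgeR adjusted p = 0.0265). GRWD1 had 70.7, 48.9, and 47.0 CPM in TN against 151, 119, and 122 CPM in TNctrl, without overlap, and it had 60.8, 105, and 99.0 CPM in OA against 128, 217, and 155 CPM in OActrl, also without overlap (edgeR adjusted p = 0.124). BCCIP and HEATR3, the chaperones of RPL23 and RPL5, fell with the block in TN, by 0.79 and 0.70 on the log2 scale (edgeR adjusted p = 0.0136 and 0.0165), and RPL23 and RPL5 themselves rose with it. NACA, HUWE1, and ZNF622 were the 3 with positive log2 fold changes, of 0.17, 0.62, and 0.48 in OA and 0.24, 0.25, and 0.07 in TN, none called.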

How the data were processed

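The authors aligned RNA-seq reads of stranded total RNA libraries to hg38 with STAR, counted reads per gene with a Gencode annotation, and deposited raw counts. The strand column that was kept is not given in the sources used here. The deposited tables of the authors' DESeq2 results hold log2 fold changes and p-values and were not used.

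The members and the gene lists were chosen with earlier results of these data known. Genes passing filterByExpr were normalized by TMM and tested, two-sided, in edgeR (version 4.0.16, R 4.3.3) by quasi-likelihood F-tests of each stressor against its own DMSO libraries. P-values were adjusted by the Benjamini-Hochberg method across every gene tested. Each standard error is back-calculated from the F statistic and its fold change. CPM values are TMM-normalized, and per-library positions used a prior count of 2. DESeq2 1.42.0, other scalings, filters, GC offsets, the replicate block, and left-out libraries were alternatives.

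Whether shared replicate numbers pair the libraries was checked by the correlation across genes of their deviations from group means. The 3 same-numbered pairs gave 0.639, 0.409, and 0.427 for TN, so these were taken as paired, although numbers 2 and 3 also deviated together (0.378 and 0.436). The pairing comes from this check and the shared numbers alone. The labels call replicates biological. No 2 libraries of a group agreed within sampling noise.

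Library totals ranged from 9884124 to 24983573 counts. The members named by rule are the paralogs and their parents, called members, and 12 fixed genes. The rule also took the 3 largest rises and falls with a mean of at least 10 CPM in each comparison. It added the 3 highest and lowest per length. Outside the rule, RPS16 was chosen after its values were seen, and RPL21 is named for its copies and RPL23 for its chaperone. Members called only by DESeq2 are also named. Transcript lengths, overlaps, and gene positions come from Gencode release 44 on hg38. The paper gives an earlier Gencode version for its counts, so the overlaps that applied there may differ. One listed gene outside the naming rule is not reported here.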

Additional observations from a re-analysis of the deposited data

How the results depend on the processing

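The median of the RP genes stayed positive in every alternative tried, and the number of genes called did not keep its size. Shares in parentheses are those of all genes called in the same setting. For OA, 0 members were called (4.48%), and DESeq2 called 4 (5.77%), scaling to library totals 4 (5.09%), ACTB scaling 49 (9.71%), no filter 6 (5.52%), GC offsets 12 (16.4%), and the fit of all 12 libraries 7 (10.9%). The replicate block called 45 in OA (26.7%), and 55 with GC offsets (25.8%). The numbers were not taken to pair the OA libraries, since the third pair had a correlation of only 0.0908, although pairs 1 and 2 gave 0.625 and 0.539. OActrl replicate 3 correlated better with OA replicate 1 (0.153). In TN, where pairing was taken, TNctrl replicate 3 also correlated slightly better with TN replicate 2 (0.436) than with TN replicate 3 (0.427). With the block and without both libraries numbered 1, 2, or 3, an alternative added after seeing the data, OA had 35 (17.2%), 66 (25.5%), and 1 (17.5%) calls and TN 71 (41.3%), 46 (12.8%), and 25 (16.8%). For TN, 1 member was called (6.99%), and DESeq2 called 5 (6.12%), scaling to library totals 8 (9.73%), ACTB scaling 60 (9.83%), no filter 3 (5.85%), GC offsets 26 (22.3%), the fit of all 12 libraries 6 (8.73%), and TMM without RP genes 0 (6.88%). The replicate block called 62 in TN (27.1%), and 69 with GC offsets (37.4%). Leaving out 1 library gave 0 to 5 calls and medians of 0.36 to 0.81 in OA, and 0 to 4 calls and medians of 0.37 to 0.73 in TN. The 5 calls came without OA replicate 1 (7.57%) and the 4 without TN replicate 1 (15.8%), and the settings with 0 calls had shares of 0.02% to 5.53% in OA and 1.01% to 3.16% in TN. ACTB scaling moved the OA median to 1.12. The contrast of the stressors called 0 members in every alternative in which it was fitted, which left out the blocked fits without both libraries of a number. The difference in share of counts was 3.72 percentage points for OA and 3.89 for TN, 5.23 and 4.99 without RN7SL, RN7SK, and mitochondrial genes in the total, and 3.05 to 4.25 and 2.52 to 4.67 when 1 library was left out. The cause of these shifts was not tested.

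Among the named members that were recomputed, signs turned for those given here. For RPS16, only the values with the replicate block and DESeq2 were looked up, and its TN value turned from 0.19 to -0.18 with the block. In OA, ACTB scaling gave log2 fold changes of 0.29 for RPL17, 0.27 for RPL22L1, 0.24 for RPL36A, and 0.33 for RPS10. GC offsets gave 0.035 for RPL17, -0.0094 for RPL22, 0.30 for RPL22L1, and 0.10 for RPL36A, and with the replicate block 0.0027, -0.077, 0.25, and 0.073. RPL22 was at -0.034 in the fit of all 12 libraries, -0.028 with the replicate block, and -0.13 with library totals, which gave -0.087 for RPL36AL and -0.0094 for RPS27L. With the block and without the libraries numbered 1, RPL22 was at -0.18 and RPS10 at 0.11, and RPL22 was at -0.12 without those numbered 3. In TN, ACTB scaling gave 0.013 for RPL22L1 and 0.35 for RPS27L, library totals -0.026 for RPL36AL, DESeq2 size factors 0.00076 for RPS27L, and GC offsets 0.17 for RPS27L, or 0.19 with the replicate block. With the block and without the libraries numbered 1, RPS27L was at 0.22 and RPLP1 at -0.017. Leaving out 1 library in OA gave ranges of -0.41 to 0.013 for RPL17, -0.20 to 0.24 for RPL22, -0.046 to 0.26 for RPL36AL, and -0.27 to 0.057 for RPS10, and in TN of -0.21 to 0.71 for RPLP1 and -0.12 to 0.11 for RPS27L.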
